A study of Homo sapiens with 62 samples.

Results

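The 8 transcripts described here were 4 alpha tubulins (TUBA1A, TUBA1B, TUBA1C and TUBA4A), 2 beta tubulins (TUBB and TUBB6), the gamma tubulin TUBG1 and the stathmin STMN1. They were found by gene symbol among 55040 annotated rows, each symbol had 1 row, and all 8 were among the 10506 rows with a mean of at least 1 FPKM over the libraries. FPKM, the unit of every level below, is the number of sequenced fragments per kilobase of transcript and per megafragment (M), so levels of different genes can be set side by side. Positions are those of the deposited files (genome build: not given in the sources used here). As deposited, 3 alpha tubulin genes lie close together. On chromosome 12 these are TUBA1A from 49578579 to 49583107, TUBA1B from 49521565 to 49525180 and TUBA1C from 49582519 to 49667114. The others are TUBA4A on chromosome 2 from 220114433 to 220142892, TUBB on chromosome 6 from 30687978 to 30693203, TUBB6 on chromosome 18 from 12308070 to 12326568, TUBG1 on chromosome 17 from 40761358 to 40767254 and STMN1 on chromosome 1 from 26210672 to 26233482.

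Microtubules are hollow polymers of paired alpha and beta tubulin, and they build the spindle that separates chromosomes when a cell divides. Gamma tubulin sits in the ring complex from which new microtubules grow, and stathmin binds free tubulin pairs and favours disassembly. Human cells carry several genes, called isotypes, for alpha and for beta tubulin, whose proteins differ mostly in a short acidic tail at the end of the chain. Dividing blood cells are known for high levels of stathmin and of the common isotypes.

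The RNA came from GM12878, an established human B-lymphoblastoid line immortalised with Epstein-Barr virus, with no treatment named for any sample. To measure technical variation, the study divided pools of 10 cells into 10 parts and handled each part as if it were a single cell, with SMARTer cDNA amplification and Nextera tagging. Of 62 samples, 20 such splits were analysed. The 10 numbered splits are counted from 1 to 10 in their titles, and the 10 unnumbered splits carry library numbers only (232, 233 and 246 to 253). Whether each set was a single pool is not stated, so p-values measure the spread between splits, which may be technical, and not that between cells or cultures.

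Titles of 9 of the 10 unnumbered splits, all but split 247, are marked as superseded by another series, and those of 0 numbered splits are. The values used are those deposited here. Laboratory numbers in the titles form 4 stretches of consecutive numbers, called number blocks here: numbered splits 5 to 8 (block a), numbered splits 1 to 4, 9 and 10 (block b), unnumbered splits 232 and 233 (block c) and the other 8 (block d). The labels do not say what these numbers mark, so whether the blocks were separate preparations or sequencing runs is not known. No block holds both sets, so set and block cannot be told apart. Depth, derived from the deposited confidence bounds, reached 11.8 to 20.6 M fragments for numbered splits and 7.79 to 38.7 M over the unnumbered splits apart from split 247, which had 0.128 M. Summed FPKM per library was 1471330 ± 199456 (SD, n = 10) in the numbered and 1215430 ± 47042 (SD, n = 10) among unnumbered splits, so the scale itself differed between sets. The B cell antigen-presentation genes CD74 and HLA-DRA were abundant in both sets. Of 15 markers of T cells, myeloid cells, red cells, fibroblasts and neurons, 11 stayed under 1 FPKM in every library, and CD3D, CD14, CD68, HBA1, HBB, COL1A2 and STMN2 were listed at 0 throughout.

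The isotypes resemble each other in sequence, and the last 60 coding bases, which encode the acidic tail, are shown for the beta tubulins as a stretch where they differ. Capitals mark bases that differ from TUBB when the whole coding sequences are aligned. Sequences are from GENCODE release 29, read on the transcript strand from 5′ to 3′ and ending with the stop codon.
TUBB: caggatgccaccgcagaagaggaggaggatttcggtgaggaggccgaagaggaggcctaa
TUBB4B: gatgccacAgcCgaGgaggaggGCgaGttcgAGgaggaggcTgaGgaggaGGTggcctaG
TUBB6: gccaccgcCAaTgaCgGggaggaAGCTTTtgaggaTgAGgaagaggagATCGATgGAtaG
TUBB4B had 14 capitals and TUBB6 had 23.

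Over their whole coding sequences TUBA1A and TUBA1B were 97.2% identical, TUBA1B and TUBA1C 96.8%, and TUBA1A and TUBA1C 95.9%. TUBA4A stood further off, at 85.7% identity with TUBA1B, and TUBB6 was 80.9% identical to TUBB. Of all windows of 100 bases, the read length that the titles name, along the main transcript, 26.6% were shared with another gene's transcript for TUBA1A, 29.6% for TUBA1C and 71.1% for TUBA1B, most of these last with an antisense transcript described further on. For TUBA4A the share was 27.4%, of which 25.6% with STK16, for TUBG1 14.9%, all with TUBG2, and for TUBB 20.4%. For TUBB6 and STMN1 it was 0. Values of all members but TUBB6 and STMN1 are therefore uncertain to the extent that the counting could split shared reads.

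TUBA1B, the major alpha tubulin of most dividing cells, was the most abundant of the 8 transcripts in both sets. In the numbered set the order of mean levels was TUBA1B, TUBB, STMN1, TUBA1A, TUBA1C, TUBA4A, TUBG1 and TUBB6. In the unnumbered set it was the same except that TUBA1C came before TUBA1A. Within splits, the mean difference between neighbours exceeded its SD for TUBA1B over TUBB in both sets, for TUBA1C over TUBA4A in the numbered set, and for TUBA1A over TUBA4A and TUBG1 over TUBB6 in the unnumbered set. The other neighbours did not differ beyond this spread. TUBA1B exceeded TUBB in 10 of 10 numbered and 9 of 10 unnumbered splits, while STMN1 exceeded its next neighbour in 5 of 10 splits of either set. The plot of all 8 transcripts by split shows the abundant ones in tight columns, and TUBA4A, TUBG1 and TUBB6 with splits at or near 0.

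**Figure D1:**
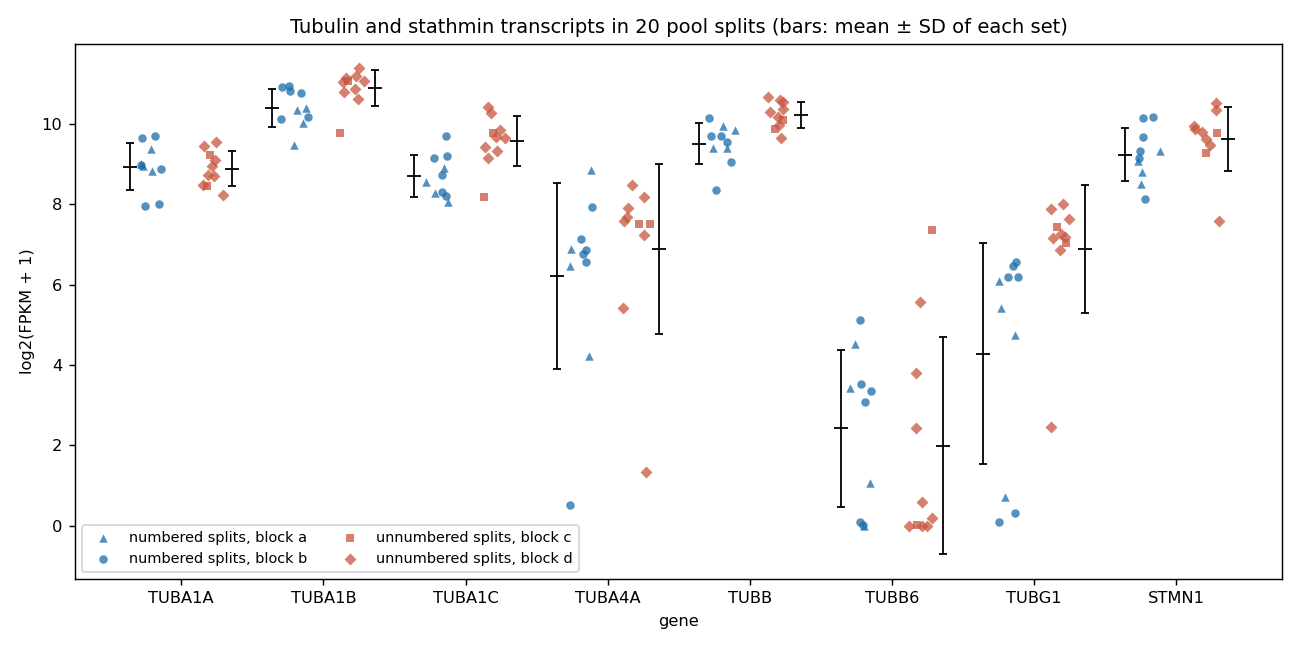
Level of each transcript as log2(FPKM + 1) (vertical axis) in every split, with numbered splits in blue and unnumbered splits in red, marker shapes for the 4 number blocks, and bars for the mean ± SD of each set (n = 10). Unnumbered TUBG1 points sit above all numbered ones except split 247, and TUBB6 is near 0 in many splits of both sets.

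TUBA1B ranged from 715 (split 7) over a median of 1334 to 1962 FPKM (split 3) in the numbered set. Unnumbered splits ranged from 879 (split 233) over a median of 2131 to 2685 FPKM (split 251). The sets overlapped, and 6 unnumbered splits lay above every numbered split. The 2 set means were 1415 ± 425 and 1983 ± 494 FPKM (SD, n = 10 each).

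TUBA1C, an alpha tubulin whose locus overlaps that of TUBA1A on chromosome 12, ranged from 265 (split 7) over a median of 401 to 831 FPKM (split 4) in the numbered set. Unnumbered splits ranged from 293 (split 233) over a median of 815 to 1369 FPKM (split 247). Here 9 of 10 unnumbered splits lay above the numbered median and 4 above every numbered split. Split 233 had the lowest unnumbered value of both TUBA1B and TUBA1C.

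TUBA1A, an isotype best known from developing neurons, had medians that lay closer together. It ranged from 250 (split 2) over a median of 501 to 835 FPKM (split 4) in the numbered set, and from 301 (split 249) over a median of 464 to 750 FPKM (split 248) over the unnumbered splits. No unnumbered split lay above every numbered split, and 2 numbered splits lay above every unnumbered split.

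TUBA4A, an alpha tubulin that lacks the encoded final tyrosine of the other 3, was the least even of the alpha members. It ranged from 0.437 (split 1) over a median of 111 to 465.8 FPKM (split 5) in the numbered set, and from 1.53 (split 253) over a median of 186.6 to 357 FPKM (split 249) among unnumbered splits. A single split of each set was near 0, and all others were at 17.7 FPKM or more.

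TUBB, the main beta tubulin of lymphoid cells, ranged from 326 (split 2) over a median of 792 to 1134 FPKM (split 10) in the numbered set. Unnumbered splits ranged from 801 (split 246) over a median of 1215 to 1626 FPKM (split 253). All 10 unnumbered splits lay above the numbered median and 6 above every numbered split, while 5 numbered splits lay below every unnumbered split. The means were 769 ± 232 and 1229 ± 274 FPKM (SD, n = 10 each).

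TUBB6, a minor beta tubulin, was detected unevenly. It reached 1 FPKM in 7 numbered splits, with a median of 8.35 and a highest value of 34.1 FPKM (split 10). In the unnumbered set it reached 1 FPKM in 4 splits, with a median of 0.320 and a highest value of 165 FPKM (split 232). These 4 include the shallow split 247, at 4.38 FPKM with deposited confidence bounds of 0 and 16.3 FPKM. A value of 0 was listed for 1 numbered split and 3 unnumbered ones.

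TUBG1, which encodes the tubulin of the nucleating ring, had the largest log2 difference of the 8 members. In the numbered set it ranged from 0.0586 (split 9) over a median of 54.4 to 93.9 FPKM (split 2), and splits 4, 7 and 9 were all under 1 FPKM. Unnumbered splits ranged from 4.51 (split 247) over a median of 149 to 257 FPKM (split 253). Apart from split 247, every unnumbered split was at 116 FPKM or more and so above every numbered split. The share of all rows that would do so with 1 split left out was not counted. In split 247, whose depth was far below the rest, the upper confidence bound in the deposited file lay 209% above the TUBG1 value, against a median of 2.998% over the other libraries at 1 FPKM or more.

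STMN1 ranged from 283 (split 1) over a median of 606 to 1163 FPKM (split 2) in the numbered set. Unnumbered splits ranged from 192.4 (split 250) over a median of 885 to 1463 FPKM (split 249). The unnumbered set held both the lowest and the highest value, and the sets overlapped over most of their range. Set against the summed tubulin of the same split, STMN1 stood at a median of 16.5% in the numbered set (10.3% to 54.2%) and 17.6% over the unnumbered splits (3.71% to 35.5%).

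The 2 sets were compared with limma on log2(FPKM + 1), with p-values adjusted by Benjamini-Hochberg over all 10506 rows. No member passed an adjusted p of 0.05 on the deposited FPKM scale. An unadjusted limma p under 0.05 was found for 4 of 8 members, beside 1714 of all 10506 rows. By an exact rank-sum test adjusted in the same way, 2 members (TUBB and TUBG1) passed. Over all rows, limma called 3.93% toward the numbered set and 1.38% toward the unnumbered set, and the rank-sum test called 2.35% toward the unnumbered set. A p that misses the threshold does not show that levels were alike. In these bulk splits, fewer cells with a transcript and less of it per cell cannot be told apart.

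The median difference over the 8 members, numbered minus unnumbered, was -0.58 on the log2 scale, with 6 members below 0 and 2 above. The median over all tested rows was 0.35, so the members' median lay on the other side of 0. The difference was -0.72 for TUBB (SE 0.22, limma adjusted p = 0.0524), -0.87 for TUBA1C (SE 0.29, adjusted p = 0.0827) and -0.50 for TUBA1B (SE 0.20, adjusted p = 0.192). For TUBG1 it was -2.61 (SE 0.97, limma adjusted p = 0.139), a value that the added 1 FPKM holds down where splits are near 0. For STMN1 it was -0.39 (SE 0.32, limma adjusted p = 0.587), for TUBA4A -0.67 (SE 0.93, adjusted p = 0.713), for TUBB6 0.43 (SE 1.05, adjusted p = 0.847) and for TUBA1A 0.05 (SE 0.28, adjusted p = 0.937). The sets of all 8 members overlapped, as did those of most rows. Of all rows, 1.65% had sets that did not overlap with the numbered set higher and 0.352% with the unnumbered set higher.

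Which members passed depended on the scale. With each library rescaled to the same sum (TPM), 3 members were called higher in the unnumbered set by limma, beside 2.08% of all rows. These were TUBB at -0.98 (adjusted p = 0.00472), TUBA1C at -1.13 (adjusted p = 0.0104) and TUBA1B at -0.76 (adjusted p = 0.0104). With median-ratio size factors, limma called TUBB at -0.95 (adjusted p = 0.0201) and TUBA1C at -1.10 (adjusted p = 0.0286), beside 1.85% of all rows. TUBA1A changed sign between scales, at 0.05 on FPKM, -0.21 on TPM and -0.19 with size factors. The plot of the differences on 4 settings shows that TUBB, TUBA1C, TUBA1B, TUBG1, STMN1 and TUBA4A stayed below 0 on each of them.

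**Figure D2:**
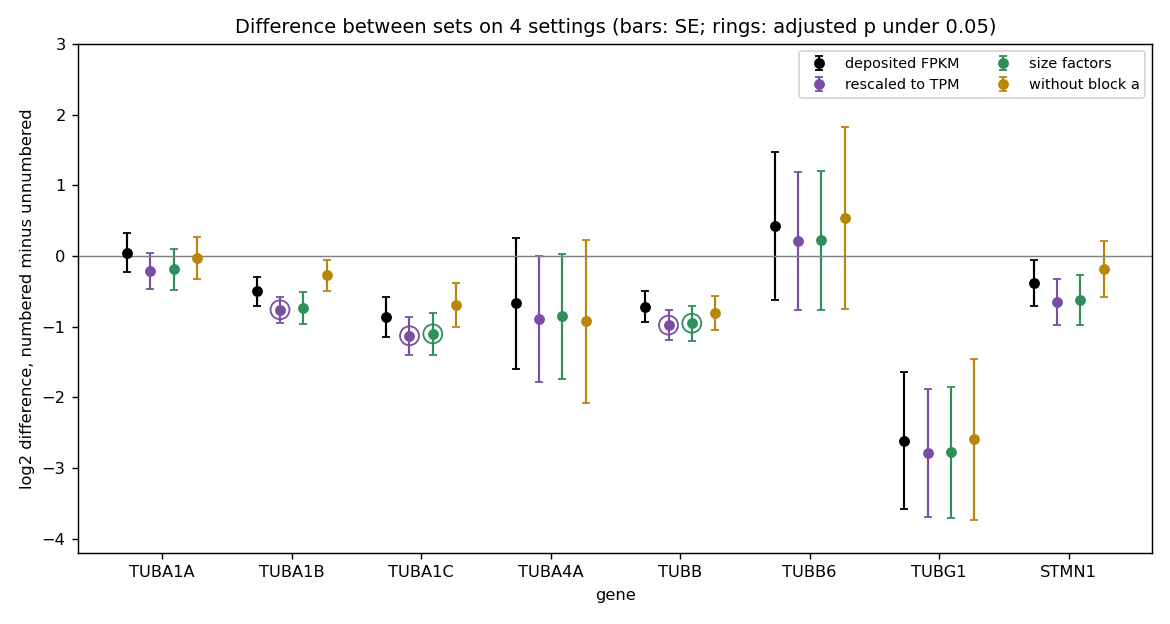
Difference of each transcript between sets as log2(value + 1), numbered minus unnumbered (vertical axis), on the deposited FPKM, on TPM, with size factors and without block a. Points are limma estimates, bars are the SE, and rings mark adjusted p under 0.05; ringed points are TUBA1B on TPM and TUBA1C and TUBB on TPM and with size factors.

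Single libraries also moved members across the threshold. Without split 233, limma called TUBB (-0.75), TUBA1C (-1.02) and TUBA1B (-0.62, adjusted p = 0.0401), beside 1.44% of all rows. Without split 247 it called TUBG1 (-3.11, adjusted p = 0.0466) and no other member, beside 1.49% of all rows. Without numbered splits 5 to 8 it called none, beside 3.14% of all rows called higher in the numbered and 1.12% in the other direction, and the TUBA1B difference was then -0.28. Within the numbered set, block a and block b differed in no member by an exact permutation test at an unadjusted p under 0.05. The smallest p of these 8 tests was 0.0762, for TUBA1B, which was at 1106 ± 295 FPKM in block a (SD, n = 4) and 1620 ± 383 FPKM in block b (SD, n = 6). The smallest p this design allows is 0.00952.

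Isotype use was described as each gene's share of the summed FPKM of the 4 alpha members, which does not depend on the scaling of a library. TUBA1B took the largest share in 20 of 20 splits, at 55.9% ± 6.43 in the numbered and 56.4% ± 5.64 among unnumbered splits (SD, n = 10 each). TUBA4A took the smallest share in 9 of 10 splits of each set. The 2 exceptions were numbered split 5, where TUBA1C was smallest, and unnumbered split 249, where TUBA1A was. The 4 members made up at least 99.7% of all alpha tubulin FPKM in every split.

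The place behind TUBA1B was held by TUBA1A in 8 of 10 numbered splits and by TUBA1C in 8 of 10 unnumbered splits. The exceptions were numbered splits 2 and 9 and unnumbered splits 233 and 253. TUBA1C stood at a median of 0.732 times TUBA1A in the numbered set (0.580 to 2.29) and 2.02 times over the unnumbered splits (0.487 to 2.99). In numbered split 4 and unnumbered split 253 the 2 genes were nearly level, at ratios of 0.995 and 0.978.

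The TUBA1C share was 17.4% ± 3.08 in the numbered and 22.8% ± 4.65 among unnumbered splits (SD, n = 10 each), a difference of -5.39 percentage points. The lowest, median and highest shares were 11.7%, 17.9% and 22.98% in the numbered set and 14.96%, 22.2% and 31.8% over the unnumbered splits. The share was lower in the numbered set by a 2-sided permutation test (p = 0.00586, adjusted over the 5 shares compared p = 0.0293), and 4 unnumbered splits lay above every numbered split. By exact permutation tests the call was lost when any 1 of splits 1, 3, 5, 232, 246, 247 and 251 was left out (-5.26 to -4.39 points over these, highest adjusted p = 0.0578, without split 247) and without block a (-4.95 points, adjusted p = 0.156). It was also lost as a difference of medians (-4.28 points, permutation test, adjusted p = 0.0636).

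The TUBA1A share was 21.4% ± 6.89 in the numbered and 15.3% ± 7.29 among unnumbered splits (SD, n = 10 each), a difference of 6.17 points that missed the threshold (permutation test, adjusted p = 0.170). It passed without split 233, where TUBA1A took 30.7% (7.89 points, exact permutation test, adjusted p = 0.0358). Neither the TUBA1B share (-0.44 points) nor the TUBA4A share (-0.35 points) passed the threshold, with an adjusted p of 0.870 for each by permutation. The stacked shares by split show the TUBA1C band widening and the TUBA1A band narrowing in most unnumbered splits.

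**Figure D3:**
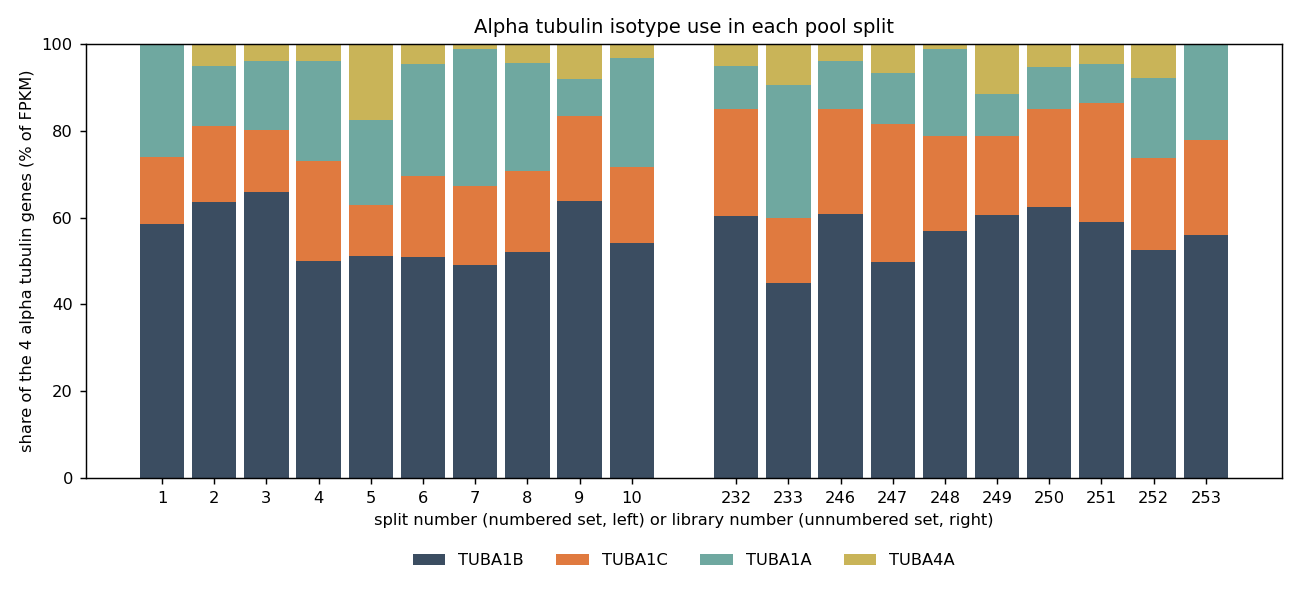
Share of the summed FPKM of the 4 alpha tubulin genes (vertical axis, %) in each numbered split (left) and unnumbered split (right), stacked by gene. TUBA1B fills 44.9% to 65.9% of every bar, the TUBA4A band reaches 17.6% in split 5, and split 233 has 14.96% TUBA1C and 30.7% TUBA1A.

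TUBB was the most abundant beta tubulin in every split. TUBB6 took a median of 1.07% of the 2 members in the numbered set and 0.0271% over the unnumbered splits, with highest shares of 3.14% (split 7) and 12.98% (split 232). The difference in its share missed the threshold (-0.58 points in the means, permutation test, adjusted p = 0.870), and the medians differed in the other direction (1.04 points, permutation test, adjusted p = 0.354). Over all beta tubulin rows, TUBB took a median of 84.1% in the numbered set (69.6% to 96.4%) and 94.4% among unnumbered splits (69.8% to 100.0%). The next most abundant, TUBB4B, a broadly expressed beta tubulin, took a median of 13.1% in the numbered and 2.46% over the unnumbered splits. Its levels were 136 ± 97.2 and 80.7 ± 98.2 FPKM (SD, n = 10 each), a difference of 1.42 on the log2 scale (SE 0.90) that limma did not call (adjusted p = 0.460). The 4 alpha members together stood at a median of 3.18 times the 2 beta members in the numbered set (2.02 to 6.67) and 2.75 times among unnumbered splits (1.96 to 4.71).

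Antisense transcripts overlap exons of 2 members. Reads that lie wholly within a shared exon stretch cannot be assigned to gene or antisense partner without strand, which the kits used do not keep. These rows were looked up after their values were seen. Row RP11-386G11.10 lies on the strand opposite to TUBA1B and shared 1309 of its 1632 exon bases (80.2%) with TUBA1B exons in GENCODE release 29. The row RP11-161H23.5 lies opposite TUBA1C and shared 666 of its 680 exon bases (97.9%).

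RP11-386G11.10 was listed at 571 ± 180 FPKM in the numbered and 1105 ± 405 FPKM over the unnumbered splits (SD, n = 10 each). It was higher in the unnumbered set by limma, at -0.93 on the log2 scale (SE 0.24, adjusted p = 0.0163), when 1.38% of all rows were called in that direction. In split 233, where TUBA1B was at its unnumbered minimum of 879 FPKM, this row was at its highest, 1925 FPKM, or 219% of TUBA1B. In the other unnumbered splits the row stayed below TUBA1B. With the row added to TUBA1B, split 233 was at 2804 FPKM, within the 2550 to 3692 FPKM of the unnumbered set. The coefficient of variation (CV, the SD divided by the mean) over the unnumbered splits was 0.249 for TUBA1B and 0.121 for the sum, and over the numbered splits 0.301 and 0.240. The sums were 1986 ± 477 and 3088 ± 374 FPKM (SD, n = 10 each), and the fit with antisense rows added called TUBA1B higher in the unnumbered set (-0.67, limma adjusted p = 0.00203), as it did 1.4% of rows. Since the 2 rows differ in length, a sum of their FPKM is not a count of fragments.

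RP11-161H23.5 reached 1 FPKM in 5 numbered splits, with a highest value of 46.1 FPKM, and in 7 unnumbered splits, with a highest value of 480 FPKM. Its median relative to TUBA1C was 0.241% in the numbered and 14.7% among unnumbered splits, and it was not called (limma adjusted p = 0.101). With it added, TUBA1C was called higher in the unnumbered set (-1.10, limma adjusted p = 0.0318). Here the CV of the sum was no lower than that of TUBA1C, at 0.415 against 0.398 in the numbered and 0.463 against 0.382 over the unnumbered splits. The paired levels of gene and antisense row show split 233 alone at the upper left for TUBA1B.

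**Figure D4:**
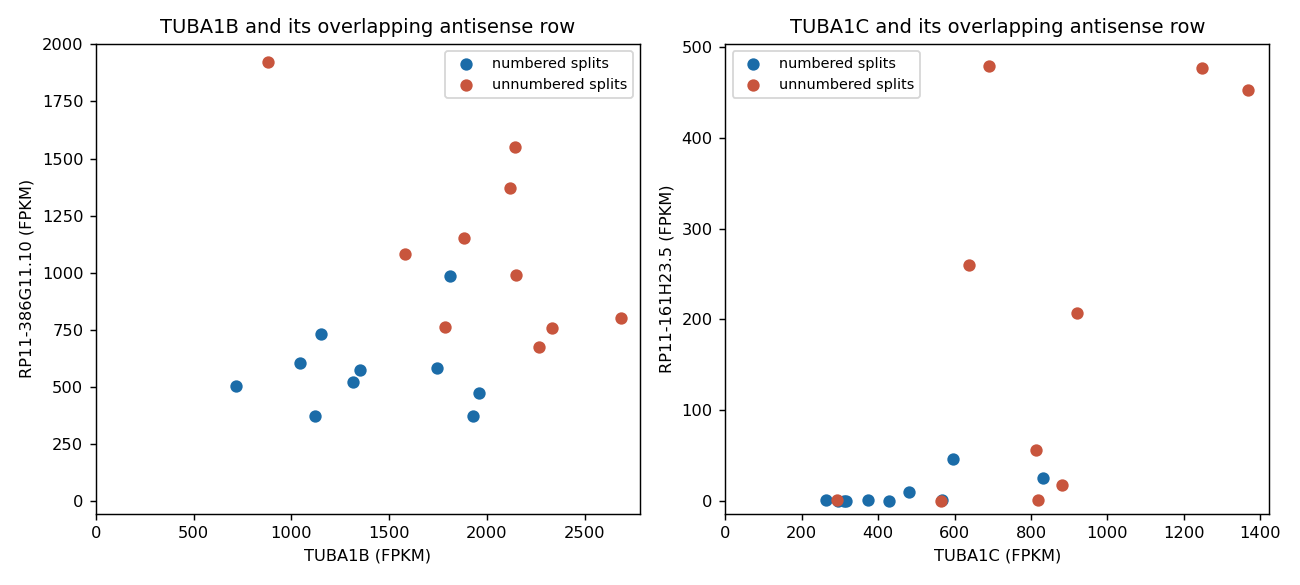
FPKM of each antisense row (vertical axis) against FPKM of the tubulin gene it overlaps (horizontal axis) in every split, for TUBA1B (left) and TUBA1C (right). The unnumbered point at 879 FPKM of TUBA1B and 1925 FPKM of the antisense row is split 233.

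Among the 8 members TUBA1B and TUBB had the lowest CVs, at 0.301 and 0.302 in the numbered set and 0.249 and 0.223 among unnumbered splits. Set against the median of tested rows at 1000 FPKM or more, TUBA1B was more variable in the numbered set (0.301 against 0.234, and above the third quartile of 0.298) and slightly less variable among unnumbered splits (0.249 against 0.266). TUBB, at 300 to 1000 FPKM in the numbered set and above 1000 FPKM in the other, was below the median of its level in both (0.410 and 0.266). STMN1, TUBA1C and TUBA1A followed at 0.452, 0.398 and 0.375 in the numbered set and 0.399, 0.382 and 0.310 over the unnumbered splits. The median CV of tested rows at 300 to 1000 FPKM was 0.410 and 0.499 in these sets, so that STMN1 alone of the 3 exceeded it, in the numbered set. TUBA4A was more variable than the median row at 100 to 300 FPKM in the numbered set (0.955 against 0.708) and less variable among unnumbered splits (0.571 against 0.852). TUBG1 had a CV of 0.808 in the numbered and 0.449 over the unnumbered splits, below the medians of 1.17 and 0.852 for rows of like level, and without splits 247 and 253 the unnumbered value was 0.239. TUBB6 had a CV of 1.18 in the numbered set, below the median of 2.27 for rows of like level, and of 2.26 among unnumbered splits, above the median of 2.11.

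**Figure D5:**
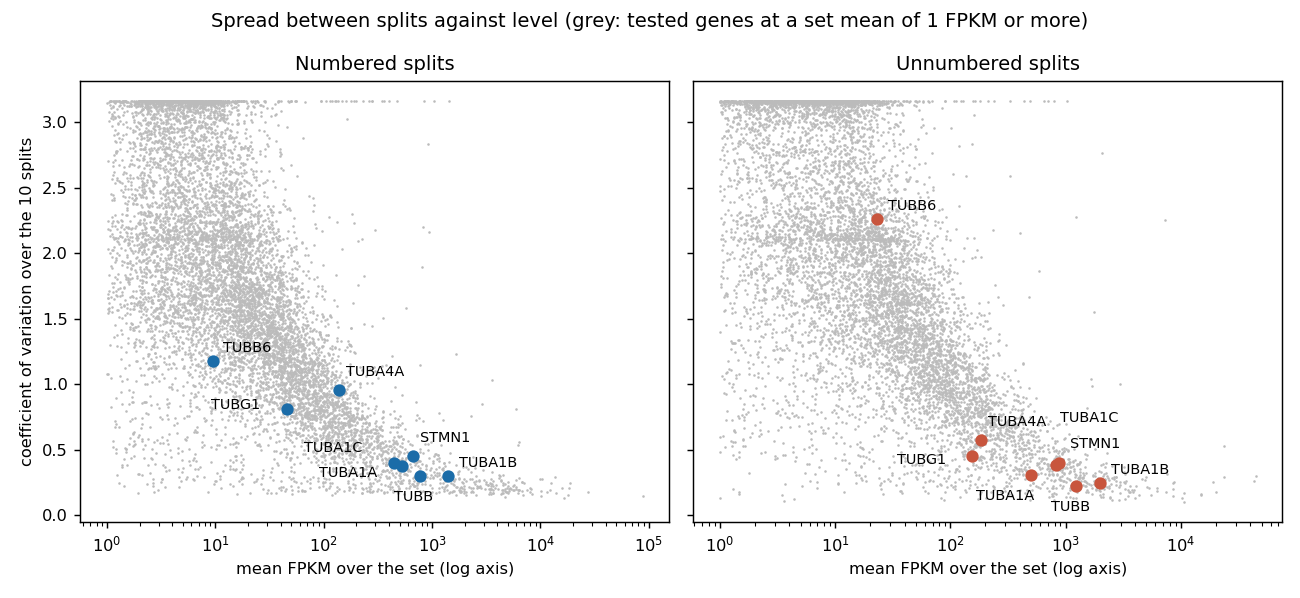
Coefficient of variation over the 10 splits (vertical axis) against mean FPKM (horizontal log axis) for the 8 transcripts (coloured, labelled) and for tested rows at a set mean of 1 FPKM or more (grey), in the numbered (left) and unnumbered set (right). The abundant members TUBA1B and TUBB sit lowest among the 8 in both sets.

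Across the 20 splits, the row of at least 100 FPKM most like TUBA1B was TUBA1C (Spearman rho 0.877), followed by the translation initiation factor gene EIF3I (0.812) and PARK7 (0.725). The levels of 1434 rows were compared, they share each library's scale and depth, and the values are descriptions. TUBA1C and TUBA1B also share sequence, as their identity above shows. For TUBA1A the rho with TUBA1B was -0.29. TUBB was most like the cyclin gene CCNB1 (0.809), EIF2S3 (0.792) and PIP4K2A (0.791), and its rho with TUBA1B was 0.429. For STMN1 the nearest were GTF3C6 (0.740), USP15 (0.624) and SKP1 (0.618).

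Likeness over 20 splits includes the difference between sets, and within a set it looked otherwise. Within the numbered set TUBA1C was 25th in likeness to TUBA1B (rho 0.733, n = 10), behind ENY2 (0.903), RAD51C (0.879) and PARK7 (0.867) at the top. Within the unnumbered splits it was second (0.830), between DRG1 (0.855) and FDPS (0.806). TUBB was nearest to MT-ND4 (0.794), EIF3E (0.782) and SNORA24 (0.768) in the numbered set and to UFD1L (0.900), TALDO1 (0.867) and CCDC25 (0.842) among unnumbered splits, with no gene in both. TUBB and TUBA1B, whose proteins pair in the microtubule, had a rho of -0.02 within the numbered and 0.04 within the unnumbered splits. STMN1 was nearest to UQCRC1 (0.830), GTF3C6 (0.818) and NPC2 (0.806) in the numbered set and to GLOD4 (0.855), RPL10 (0.842) and RPLP0P6 (0.818) among unnumbered splits.

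Beside the members, 1 alpha row was tested. It was TUBA4B, and it was not called by limma, by the rank-sum test or at an unadjusted p under 0.05. Its means were 2.53 ± 2.13 and 3.51 ± 1.94 FPKM (SD, n = 10 each). Of 4 other beta rows tested, TUBB4B among them, limma called 0. An unadjusted p under 0.05 was found for 2 of them, beside 1714 of all 10506 rows. The 2 were TUBB2A and TUBB2B, which the rank-sum test called higher in the numbered set, beside 6.72% of all rows. TUBB2A was at 11.98 ± 16.4 and 1.04 ± 1.11 FPKM (SD, n = 10 each).

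Of 12 other rows for gamma, delta and epsilon tubulin and the ring complex, limma called 1 higher in the numbered set. Of all rows, 3.93% were called in that direction, which is opposite to that of the TUBG1 values. The row called was MZT2B, a small ring complex protein. It had a median of 22.1 FPKM in the numbered set and 8 splits at 1 FPKM or more, against 2 such unnumbered splits (log2 difference 3.72, SE 0.91, limma adjusted p = 0.0117). Without block a it was not called. The rank-sum test called 2 rows of the list higher in the numbered set, MZT2B and TUBGCP4, beside 6.72% of all rows. MZT1, the other abundant row of the list, had means of 34.8 ± 46.3 and 21.1 ± 45.2 FPKM (SD, n = 10 each). The median over the list was 0.69.

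New tubulin chains are folded by prefoldin, the CCT chaperonin and a set of cofactors. Of 18 such rows tested, limma called 1 higher in the numbered set, beside 3.93% of all rows. This was the prefoldin subunit gene PFDN5, at 1256 ± 452 against 645 ± 257 FPKM (SD, n = 10 each), a log2 difference of 0.95 (limma adjusted p = 0.0275). The PFDN5 call by limma was lost on TPM (adjusted p = 0.136) and with size factors (adjusted p = 0.212). On TPM limma called TCP1 higher in the unnumbered set instead, beside 2.08% of all rows. By the rank-sum test 2 rows, PFDN5 and TBCEL, were called higher in the numbered set, beside 6.72% of all rows. TBCEL reached 1 FPKM in 2 numbered and 0 unnumbered splits. CCT3, a chaperonin subunit, was at 482 ± 337 and 787 ± 337 FPKM (SD, n = 10 each). The median of the list was 0.01, near that of no change and below the 0.35 of all rows.

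Among 14 rows for proteins that bind microtubule ends or walls, limma called 1, beside 1.38% of all rows called toward the unnumbered set. The gene was MAPRE1, which encodes the end-binding protein EB1. It was higher in the unnumbered set, at 44.0 ± 41.7 against 186.3 ± 101 FPKM (SD, n = 10 each; -2.91, adjusted p = 0.0250), and not called without block a. CKAP5, a microtubule polymerase, was at 143 ± 157 and 152 ± 105 FPKM (SD, n = 10 each). Of 8 rows for depolymerising and severing factors limma called 0. An unadjusted p under 0.05 was found for 3 of them, beside 1714 of all 10506 rows. The rank-sum test called 1 (KATNAL1, a katanin) higher in the numbered set, beside 6.72% of all rows. KIF2A was at 76.9 ± 51.8 and 50.3 ± 76.7 FPKM and KIF2C, another depolymerising kinesin, at 42.1 ± 64.3 and 70.3 ± 74.7 FPKM (SD, n = 10 each).

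Of 10 rows for enzymes that modify tubulin limma called 1 higher in the numbered set, beside 3.93% of all rows. This was AGTPBP1, which removes tail residues. It had a median of 12.99 FPKM in the numbered set and 7 splits at 1 FPKM or more, against 0 unnumbered splits (log2 difference 3.14, adjusted p = 0.0235), and was not called without block a. CCDC23, the list's other abundant row, reached 1 FPKM in 3 numbered splits and 1 unnumbered split.

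Of 21 genes of the mitotic spindle and of the G2/M phase, limma called 6 higher in the unnumbered set and 0 higher in the numbered set, beside 1.38% and 3.93% of all rows, and the list's median was -1.56. CCNB1, the mitotic cyclin, was at 129 ± 136 and 825 ± 407 FPKM (SD, n = 10 each; -4.25, adjusted p = 0.00903). AURKA, a spindle kinase, was at 2.88 ± 4.56 and 139 ± 90.1 FPKM, and PRC1, which bundles spindle microtubules, at 23.1 ± 40.0 and 199 ± 112 FPKM (SD, n = 10 each). The other 3 called were CCNB2, CENPF and BIRC5. Without block a, 4 of the 6 were called, beside 1.12% of all rows in that direction. CKS2 and PTTG1, the most abundant of the list, were not called, at 443 ± 230 against 842 ± 477 and 552 ± 220 against 713 ± 346 FPKM (SD, n = 10 each). On the log2 scale PTTG1 nevertheless differed toward the numbered set (0.33, SE 0.81). So did MKI67 (0.67), UBE2C (0.29) and PLK1 (0.27), none of them called. The part of these genes in the tubulin differences was not tested.

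Of 10 B cell genes, limma called 4 higher in the numbered set, beside 3.93% of all rows, and 0 higher in the unnumbered set. Without block a, 2 were called, beside 3.14% of all rows called higher in the numbered set. CD74 was at 5222 ± 1077 and 2328 ± 653 FPKM, HLA-DRA at 4292 ± 684 and 2437 ± 340 FPKM, and CD79A, part of the B cell receptor, at 112 ± 52.2 and 15.9 ± 35.7 FPKM (SD, n = 10 each), and MS4A1 was the other gene called. Of the markers of other cell types, 3 were tested and limma called 0. CD2 had an unadjusted p under 0.05, beside 1714 of all 10506 rows. The rank-sum test called CSF1R higher in the numbered set, beside 6.72% of all rows. The summed level of these markers ranged from 2.21 to 107 FPKM in the numbered and from 0.903 to 6.75 FPKM among unnumbered splits. CD2 was at 18.1 ± 20.5 and 0.561 ± 1.77 FPKM and CSF1R at 8.90 ± 16.1 and 1.29 ± 0.259 FPKM (SD, n = 10 each). The part of either list in the tubulin differences was not tested.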

How the data were processed

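The authors aligned reads with TopHat 1.4.1 and made FPKM values with Cufflinks 2.0.2, per the submitters' processing notes, and deposited 1 FPKM table of 55040 rows per library with confidence bounds and a status. The build (not given in the sources used here) and annotation version stay unnamed. Rows with status FAIL in any library (128) or LOWDATA in all (5797) were left out, which kept 49115, and 10506 rows with a mean FPKM of at least 1 were tested with limma 3.58.1 (R 4.3.3, trended variance) on log2(FPKM + 1), Benjamini-Hochberg, threshold 0.05. No covariate was used. A fold on this scale understates changes of low genes. Shares were compared by 2-sided permutation tests (100000 resamples, scipy 1.17.1), exact where fewer than 10 splits entered a set. Depth was derived from the deposited bounds of 10 mitochondrial genes. No 2 of the 20 libraries were identical. Sequences were read from GENCODE release 29 transcripts. Those of the alpha tubulins are not reported here. The fit was tested on simulated data. All 8 members were named, and from each gene list the 2 most abundant tested rows and up to 3 called rows with the smallest p. Genes most like TUBA1B, TUBB and STMN1 were the 3 with the highest Spearman rho among rows of at least 100 FPKM. Members and lists were chosen with earlier results of these data known. The other 42 samples of the series were not analysed here.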

Additional observations from a re-analysis of the deposited data

Results flagged for a closer look

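Levels and shares of the members were looked at for single splits that stand apart from the other 9 of their set, by the gap to the nearest split relative to the range of the set (Dixon's 95% value of 0.466 for 10 splits). Levels were taken as log2(FPKM + 1) and shares in percent. This marked 6 of 26 groups of values, and chance marks about 1 in 20.

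In numbered split 5, TUBA4A took 17.6% of the alpha tubulin members, the highest share of any split, beside a set median of 4.12%. In unnumbered split 253 the same gene was at 1.53 FPKM, beside a set median of 186.6 FPKM. In unnumbered split 233 TUBA1B was at 879 FPKM, the lowest of its set, while the overlapping antisense row RP11-386G11.10 was at 1925 FPKM, the highest of the 20 splits. In unnumbered split 247 TUBG1 was at 4.51 FPKM, in the library with the lowest depth (0.128 M, or megafragments). In unnumbered split 250 STMN1 was at 192.4 FPKM, beside a set median of 885 FPKM. In unnumbered split 232 TUBB6 took 12.98% of the 2 beta members, beside a set median of 0.0271%.

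The marks on levels depend on the scale. On log2(FPKM + 1) 4 of 16 groups of levels were marked. On FPKM without a log, a scale tried after seeing the data, none of these 4 was, and 2 others were: TUBA4A in numbered split 5 (465.8 FPKM) and TUBB6 in unnumbered split 232 (165 FPKM), the splits whose shares of the same genes are given above.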

How the results depend on the processing

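Of 96 recomputed differences of members between sets, 79 kept their sign and their side of the threshold, 12 newly passed it and 5 changed sign. With the rank-sum test and with other filters on mean FPKM, the differences are those given above, so their sign could not change. The same holds with antisense rows added, apart from TUBA1B and TUBA1C. Signs kept in these settings are therefore not separate results. All that newly passed were higher in the unnumbered set, by limma unless named otherwise. TUBA1B passed on TPM (-0.76) and with antisense rows added (-0.67), an alternative chosen after seeing the data. TUBA1C passed on TPM (-1.13), with size factors (-1.10), with antisense rows added (-1.10) and among rows of at least 10 FPKM (-0.87). TUBB passed on TPM (-0.98), with size factors (-0.95), among rows of at least 10 FPKM (-0.72) and by the exact rank-sum test (-0.72, adjusted p = 0.0169). TUBG1 passed without split 247 (-3.11) and by the rank-sum test (-2.61, adjusted p = 0.00969). Sign changed for TUBA1A on TPM (-0.21), with size factors (-0.19), and with block a as a covariate or left out (-0.025 each), and for TUBB6 with a pseudocount of 10 (-0.068). Block a lies wholly in the numbered set. Its covariate and its removal therefore gave the same difference for every member and are not separate results. The rank-sum test called 953 of 10506 rows, against 558 by limma. The other planned settings gave 386 to 651. The 651 were among only 5805 rows of at least 10 FPKM, so a larger part of all rows passed in that setting. The cause was not tested.

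The lower TUBA1C share of the numbered set missed the threshold without split 247 (-4.39 points), without splits 9, 247 and 253 (-4.65), without block a (-4.95) and as a difference of medians (-4.28). The TUBA1A share passed with antisense rows added (6.66, adjusted p = 0.0316). Shares changed sign for TUBA1B without block a (2.96), TUBA4A with antisense rows added (0.33) and TUBB6 in medians (1.04). The TUBG1 difference between number blocks a and b changed sign with a pseudocount of 0.1 (0.41), and its unnumbered CV was 0.239 without splits 247 and 253.

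Leaving out each split in turn was also chosen after seeing the data. It gave 524 to 614 called rows of 10506, both directions together. Differences ranged from -0.037 to 0.16 for TUBA1A, -0.62 to -0.40 for TUBA1B, -1.02 to -0.77 for TUBA1C, -1.28 to -0.03 for TUBA4A, -0.79 to -0.59 for TUBB, 0.13 to 1.02 for TUBB6, -3.11 to -2.15 for TUBG1 and -0.61 to -0.27 for STMN1. TUBB passed without 5, 8, 10, 233 or 246, TUBA1C without 4 or 233, TUBA1B without 233 and TUBG1 without 247. Shares ranged from 5.07 to 7.89 points for TUBA1A, -1.71 to 0.31 for TUBA1B, -6.26 to -4.39 for TUBA1C, -1.73 to 0.31 for TUBA4A and -0.79 to 0.66 for TUBB6. The TUBA1C share missed the threshold without 1, 3, 5, 232, 246, 247 or 251.

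No paired analysis was possible because the split numbers 1 to 10 and the library numbers of the unnumbered set share no number. In split 247, the shallowest library, all 8 members were at 1 FPKM or more, and the upper bound lay 272% above TUBB6 and 60.8% above TUBA4A. Over the other libraries at 1 FPKM or more the highest such value was 13.6% for TUBB6 (10 libraries) and 38.1% for TUBA4A (18 libraries). Values above 0 but under 1 FPKM differed in precision between the other libraries. The bound lay from 21.4% (TUBB6 in split 251) to 272% (TUBB6 in split 233, the deepest) above them.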
